A study of Homo sapiens with 6 samples.

Results

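The 10 genes described here encode lineage factors and surface markers by which endometrial and other Müllerian epithelium, and the mesothelium that lines the peritoneum, are recognised. They are PAX8, PAX2, WT1, EMX2, FOXA2, SOX17, MUC1, MUC16, MSLN and EPCAM. They were taken by gene symbol, and 10 of 10 were found among the 60660 genes of the count tables. RNA was sequenced from 12Z cells, an established epithelial line from endometriosis, in 2 groups of 3 libraries. Control cells had received a non-targeting siRNA, and knockdown cells had received siRNA LINC01133a, against the long noncoding RNA LINC01133, at a final 10 nM. All cells were lysed 72 h after transfection. Both groups are 1 cell line, and a single siRNA was sequenced, so an effect of losing LINC01133 and an effect of this siRNA on other RNAs cannot be told apart.

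The female tract develops from the Müllerian (paramesonephric) duct, which forms beside the Wolffian duct from coelomic epithelium, the layer that also gives rise to mesothelium. PAX2, PAX8 and EMX2 are transcription factors of the urogenital ducts, and PAX8 remains a marker of Müllerian epithelium in the adult. WT1 is a zinc finger factor of coelomic epithelium, mesothelium and uterine stroma. FOXA2 and SOX17 act in the glands of the endometrium. MUC1 and MUC16, which carries the CA125 epitope, are membrane mucins of the apical surface. MSLN, the mesothelin that binds MUC16, is abundant on mesothelium, and EPCAM is an adhesion molecule of most simple epithelia.

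The siRNA strand that pairs with the target is shown because its seed, positions 2 to 8, can also pair with other RNAs. It is written 5′ to 3′ with the seed in capitals.
siRNA LINC01133a, antisense strand: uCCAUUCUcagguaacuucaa
The complement of this seed, AGAATGG, was searched in the annotated 3′ UTRs of the 10 genes (GENCODE v44). None of the 10 genes held it in any annotated transcript, whereas 25.4% of the 12544 tested genes with a 3′ UTR did.

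LINC01133 itself had 859, 726 and 808 counts in control libraries, against 153, 135 and 122 after knockdown, which fits the labels. Its estimated log2 change was -2.63 (SE 0.070). The libraries held 27742562 to 37551194 counts on genes. Of 15155 genes tested, 3532 (23.3%) were higher and 3783 (25.0%) lower in knockdown cells at an adjusted p under 0.05 (edgeR, quasi-likelihood). With the fold change cutoff of 1.5 added, which defines differentially expressed (DE) genes below, 803 (5.30%) were higher and 975 (6.43%) lower. Scaling by library size alone moved the higher share of DE genes from 45.2% to 55.9%. The counts of the 2 groups did not overlap for 4284 (28.3%) genes that were higher and 4400 (29.0%) that were lower.

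The markers fell into abundant, low and absent ones in 12Z cells. WT1, MSLN and MUC1 were abundant, PAX8, SOX17 and EPCAM were close to the limit of 1 TPM, and MUC16, PAX2, EMX2 and FOXA2 were at or near 0. TPM, or transcripts-per-million, divides each count by the exon length of its gene, so it allows genes to be compared within a library. A gene was called expressed if it had a TPM of at least 1 in each of the 3 control libraries, which 4 of the 10 markers reached (WT1, MSLN, MUC1 and PAX8). Of the 6 markers with at least 3 counts in each control library these were 4, where 80.5% of all such genes were expressed.

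WT1 had 80.9, 83.2 and 80.8 TPM in control libraries 1 to 3, above all other markers. It lay higher than 85.9% of the 16936 genes with at least 3 counts in each control library. MSLN followed with 51.8, 45.1 and 44.5 TPM, and MUC1 with 45.1, 46.2 and 37.1 TPM. The ranges of these 2 overlapped, so their order was not resolved, and it turned when the longest transcript was used as the length. PAX8 had 1.44, 1.34 and 1.44 TPM, higher than only 20.6% of detected genes. SOX17 (0.799, 0.852 and 1.05 TPM) and EPCAM (0.977, 0.760 and 0.509 TPM) lay around the limit, with overlapping ranges. MUC16 had at most 0.0314 TPM in a control library.

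**Figure D1:**
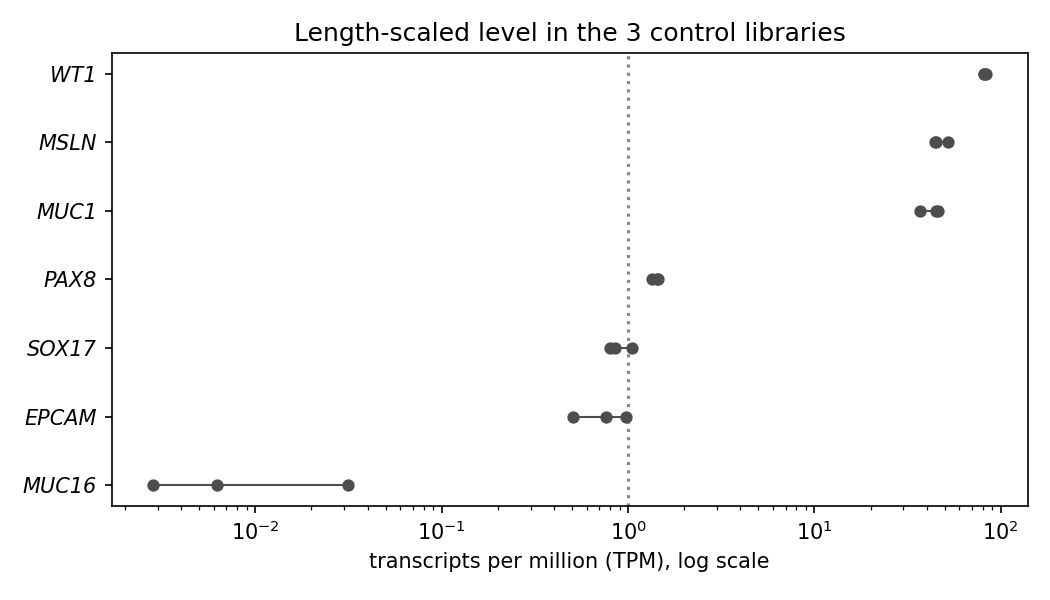
Level in transcripts-per-million (log axis) of the 7 markers with any count in the 3 control libraries. Each point is a library, lines join the lowest and the highest, and the dotted line marks 1 TPM. WT1 lies between 80.8 and 83.2 TPM, MSLN and MUC1 overlap at 37.1 to 51.8 TPM, and MUC16 does not exceed 0.0314 TPM.

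The epithelial label of the line was checked against a list of 27 markers of endometrial glands and epithelium in general, of which 9 were expressed. The keratins of simple epithelium were among the most abundant transcripts, with a mean of 2032 TPM for KRT8, 2507 TPM for KRT18 and 2286 TPM for KRT19 in control cells. The E-cadherin gene CDH1 had 9.09 TPM. Regulators of epithelial splicing and identity were absent or nearly so, since GRHL2 and OVOL2 had no count in any library and ESRP1 had at most 1. The gland products PAEP, SCGB2A1 and SCGB1D2 had between 0 and 1 counts in each library, and the steroid receptors ESR1 and PGR had 0.319 and 0.213 TPM. Transcripts typical of stroma were abundant in the same libraries, with 2483 TPM for the collagen gene COL3A1 and 1365 TPM for VIM, and 15 of 19 stromal genes were expressed. Of 12 mesothelial genes, 8 were expressed, among them LRRN4 at 260 TPM, BNC1 at 174 TPM and CALB2, which encodes calretinin, at 151 TPM. KRT5 and GATA4 of this list had no count in any library. In bulk RNA, a change in the share of cells that carry a marker and a change in RNA per cell cannot be told apart.

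On knockdown, WT1 fell to 64.9% of its control level, and no other marker passed the test. The 6 markers with enough counts were tested (WT1, MSLN, MUC1, PAX8, SOX17 and EPCAM). Of these 6, 1 was lower at an adjusted p under 0.05 and 0 were higher, against 25.0% and 23.3% of all genes tested. The same gene was also DE and lower, against 6.43% of all genes tested. Under DESeq2 the count of DE markers was likewise 1. The median log2 fold change of the 6 tested markers was 0.054, and that of all genes tested was 0.0032. The groups overlapped for 5 of the 6 tested markers, and WT1 was the 1 that was lower without overlap, against 29.0% of all genes tested.

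**Figure D2:**
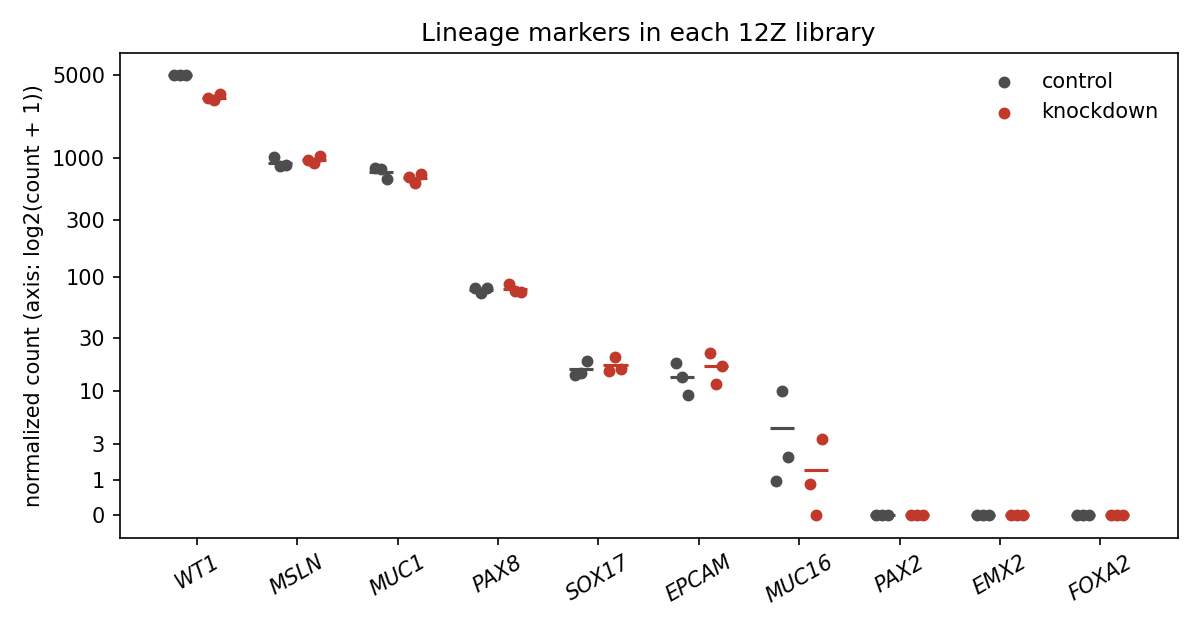
Normalized counts of the 10 markers in each library (the axis is log2 of count + 1, labelled in counts), with control libraries in grey and knockdown libraries in red. Points are libraries and bars are group means. WT1 is lower in all 3 knockdown libraries, while the groups of every other marker overlap or are at 0.

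WT1 (ENSG00000184937.16) lies on the minus strand of chromosome 11 from 32387775 to 32435564 of GRCh38. It had 4981, 4953 and 4960 normalized counts in control libraries 1 to 3, against 3168, 3061 and 3437 in knockdown libraries. The control libraries were nearly equal, and the highest knockdown library stayed well below the lowest control library. The mean fell from 4965 ± 14.7 to 3222 ± 194 normalized counts (± SD of 3 libraries), or 64.9% of control. The estimated log2 change was -0.62 (SE, standard error, 0.044, 95% interval -0.72 to -0.53, adjusted p = 1.2e-07, edgeR quasi-likelihood). This is close to the fold change cutoff, which is 0.585 on the log2 scale. With library size alone as scaling WT1 reached -0.56 (adjusted p = 4.8e-07) and was no longer DE. With each library left out in turn it ranged from -0.67 to -0.59 and stayed past both cutoffs.

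WT1 and the antisense RNA WT1-AS (ENSG00000183242.12) start head to head, and their first exons share 47 bases on opposite strands. WT1-AS had 377, 327 and 351 normalized counts in control libraries and 255, 252 and 293 in knockdown libraries, so its groups did not overlap either. Its estimated log2 change was -0.41 (SE 0.088, adjusted p = 0.0018, edgeR quasi-likelihood), in the same direction as WT1 and under the fold change cutoff. The counting kept the strands apart, and 0.656% of the stranded counts at WT1 fell on its opposite strand.

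The 250 bases before the most upstream WT1 start in RefSeq (GRCh38.p14, chr11:32435540-32435789, minus strand) are shown because both RNAs of this pair fell and the stretch lies within the annotated span of WT1-AS. Capitals mark the letters of a GC box (GGGCGG, either strand).
WT1: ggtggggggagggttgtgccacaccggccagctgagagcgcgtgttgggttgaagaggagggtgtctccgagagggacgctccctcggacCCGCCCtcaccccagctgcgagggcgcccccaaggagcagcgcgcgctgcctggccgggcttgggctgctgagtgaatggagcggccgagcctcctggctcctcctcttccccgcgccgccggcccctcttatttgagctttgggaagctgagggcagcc
The stretch holds 1 GC box and no match to CCAAT or to TATAAA. Of 35116 windows of 250 bases before a RefSeq start, 42.6% held a GC box, 32.0% the CCAAT letters and 10.7% the TATAAA letters. Its GC content was 70.4%, higher than in 80.1% of these windows.

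PODXL and SLC47A1 followed WT1 most closely over the 6 libraries, by Pearson's correlation of log2 CPM (counts-per-million). PODXL (r = 0.9994) encodes the surface sialomucin podocalyxin, and SLC47A1 (r = 0.9994) an exporter of organic cations. PODXL fell from 45798 ± 435 to 31176 ± 1948 normalized counts and SLC47A1 from 399 ± 8.11 to 223 ± 16.6 (± SD of 3 libraries). The 6 points form 2 groups, and such a value mainly shows a similar difference between groups and a similar spread within them.

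**Figure D3:**
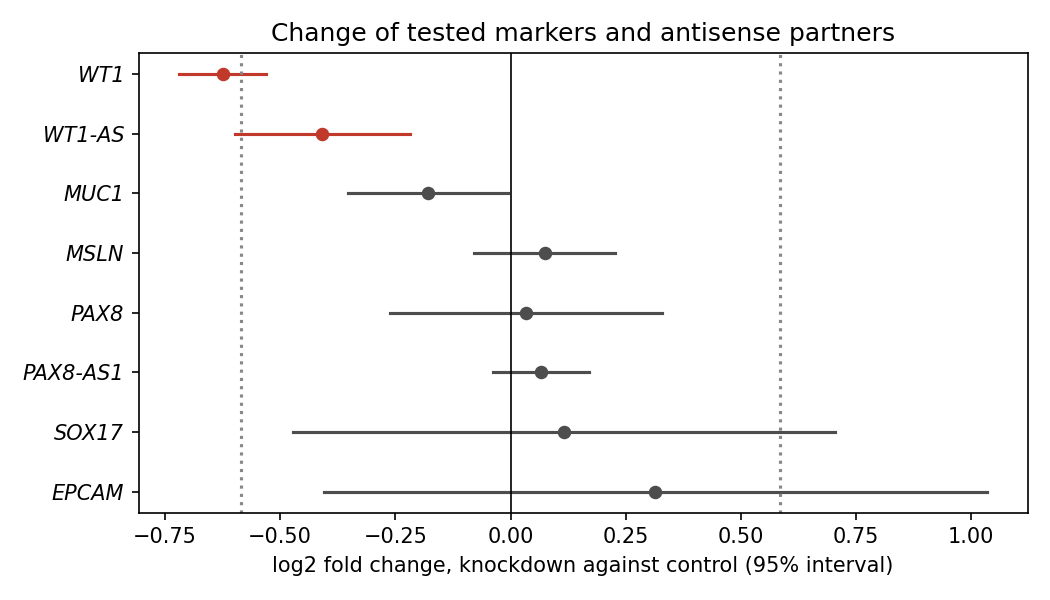
Log2 fold change, knockdown against control, of the 6 tested markers and of WT1-AS and PAX8-AS1, with 95% intervals from edgeR. Red marks an adjusted p under 0.05, and dotted lines mark a fold change of 1.5. WT1 (-0.62) and WT1-AS (-0.41) lie below 0, and the intervals of SOX17 and EPCAM reach past a fold change of 1.5 on the higher side.

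MSLN, the partner of MUC16 on mesothelial surfaces, did not pass the test. MSLN (ENSG00000102854.16) is found on the plus strand of chromosome 16 between 760734 and 768865. Its normalized counts were 1016, 854 and 868 in control libraries and 957, 903 and 1034 in knockdown libraries. The groups overlapped widely. The estimated log2 change was 0.075 (SE 0.071, 95% interval -0.078 to 0.23, adjusted p = 0.41, edgeR quasi-likelihood), an interval that lies within a fold change of 1.5 in either direction. Within a library, MSLN was 0.542 to 0.641 times as abundant as WT1 in TPM in control cells and 0.927 to 0.949 times in knockdown cells. This ratio does not depend on how libraries were scaled, and its ranges did not overlap. Its size does depend on the length used for each gene. With the longest transcript as the length, the control means were 36.9 TPM for MSLN and 152 TPM for WT1. The ratio is built from the same WT1 and MSLN counts as above, so it is not a separate result.

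MUC1 lies on the minus strand of chromosome 1 from 155185824 to 155192916 (ENSG00000185499.16) and shares 48 exon bases with another gene model of its strand, ENSG00000273088, so reads there are uncertain. It had 821, 812 and 672 normalized counts in control libraries and 687, 622 and 730 in knockdown libraries. The third control library lay within the range of the knockdown libraries. The estimated log2 change was -0.18 (SE 0.081, 95% interval -0.35 to -0.0050, adjusted p = 0.083), so the difference did not pass after adjustment. It did pass without control replicate 3 (-0.27, adjusted p = 0.0091 from the same test), and with all 6 libraries when no filter on low counts was used (-0.18, adjusted p = 0.027). Over 13 alternatives the log2 fold change ranged from -0.27 to -0.12 and the adjusted p from 0.0091 to 0.31.

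The corresponding stretch before the MUC1 start (GRCh38.p14, chr1:155192916-155193165, minus strand) is given for comparison with WT1. Capitals mark GC boxes and a TATA box (TATAAA).
MUC1: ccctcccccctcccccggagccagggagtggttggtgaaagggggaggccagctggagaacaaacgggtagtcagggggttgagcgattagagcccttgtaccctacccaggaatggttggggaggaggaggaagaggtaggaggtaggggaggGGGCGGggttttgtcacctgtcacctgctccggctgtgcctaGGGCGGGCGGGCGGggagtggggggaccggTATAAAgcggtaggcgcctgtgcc
It holds 4 matches to the GC box, some of them overlapping, and 1 to the TATA box, where the WT1 stretch holds 1 and none. RefSeq windows were at hand for 6 of the 10 genes (PAX8, PAX2, WT1, EMX2, MUC1 and MUC16). Their GC content ranged from 60.4% to 70.4%, with 60.4% for EMX2, 61.6% for PAX2, PAX8 and MUC16, and 66.0% for MUC1.

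PAX8 lies on the minus strand of chromosome 2 from 113215997 to 113278921 (ENSG00000125618.17). Its sense counts were 85, 64 and 77 in control libraries and 102, 78 and 66 in knockdown libraries. After normalization these were 80.5, 72.1 and 79.8 against 86.5, 75.7 and 74.9, with full overlap. The estimated log2 change was 0.033 (SE 0.14, 95% interval -0.26 to 0.33, adjusted p = 0.86, edgeR quasi-likelihood). Its sign was not stable, since it was negative with the unstranded column and without control replicate 2 or knockdown replicate 1.

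The antisense RNA of this locus was far more abundant than PAX8. PAX8-AS1 (ENSG00000189223.15) had 2118 ± 73.8 normalized counts in control, against 2220 ± 134 after knockdown (± SD of 3 libraries), a log2 fold change of 0.066 (adjusted p = 0.28). In TPM, PAX8-AS1 had a mean of 12.8 and PAX8 of 1.40 in control cells. The 2 genes share 1651 exon bases, which is 22.4% of the exon bases of PAX8. Of the stranded counts that fell on PAX8 exons, 74.4% lay on the opposite strand, against 0.656%, 0.207% and 0.177% for WT1, MUC1 and MSLN. The unstranded column, which leaves out reads that fit both genes, held 68, 69 and 76 counts for PAX8 in control libraries and 90, 67 and 68 in knockdown libraries, again overlapping.

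**Figure D4:**
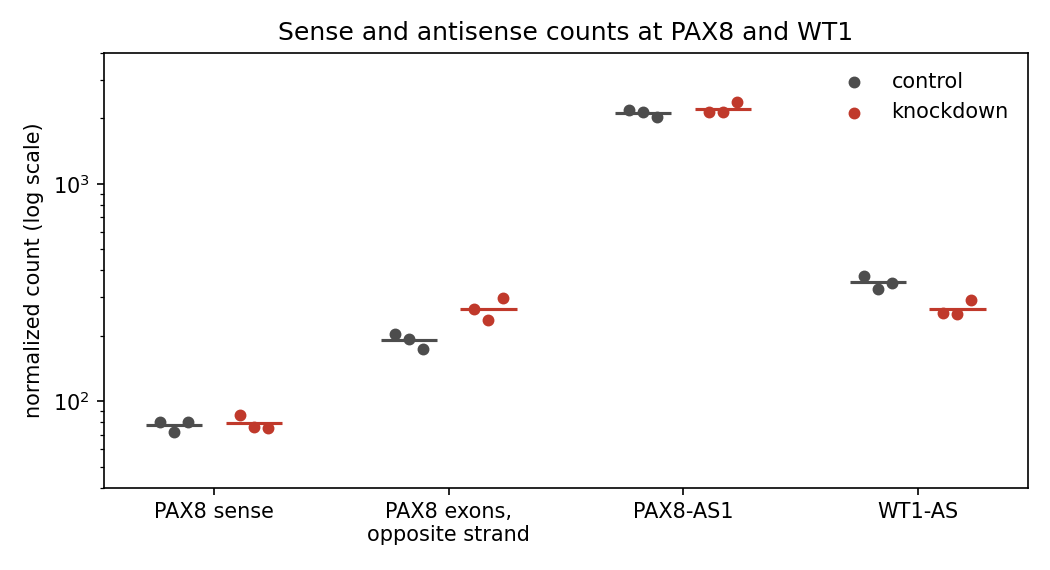
Normalized counts (log axis) of PAX8 on its own strand, of reads on the opposite strand of PAX8 exons, of PAX8-AS1 and of WT1-AS, with a point per library and a bar at each group mean. Control libraries are grey and knockdown libraries red. PAX8 sense counts overlap between groups at 72.1 to 86.5, opposite-strand counts lie at 174 to 204 in control and 237 to 297 in knockdown libraries, and WT1-AS is lower in all 3 knockdown libraries.

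SOX17 (ENSG00000164736.6, chromosome 8, 54457935 to 54460892) was detected with 15, 13 and 18 counts in control libraries and 18, 21 and 14 in knockdown libraries. The groups overlapped, and the estimated log2 change was 0.12 (SE 0.27, 95% interval -0.47 to 0.70, adjusted p = 0.76, edgeR quasi-likelihood). Without knockdown replicate 2 the SOX17 estimate turned to -0.023. EPCAM (ENSG00000119888.11, chromosome 2, 47345158 to 47387601) had 19, 12 and 9 counts in control and 26, 12 and 15 in knockdown libraries. Its estimated log2 change was 0.31 (SE 0.33, 95% interval -0.41 to 1.03, adjusted p = 0.46 from the same test). For both genes the interval includes 0 and a rise of 1.5-fold, whereas a fall of that size lies outside it. SOX18, a relative of SOX17 in the same SOX subgroup, fell from 57.8 ± 12.2 to 29.3 ± 2.32 normalized counts (± SD of 3 libraries, adjusted p = 0.0012).

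MUC16 (ENSG00000181143.15, chromosome 19, 8848844 to 9010390) had 1, 9 and 2 counts in control libraries and 1, 0 and 3 in knockdown libraries. This makes 12 counts in control and 4 in knockdown cells, of which 9 were in control replicate 2, and the gene was below the filter for testing. With no filter its adjusted p was 0.22 from the same test. The 14 other mucin genes examined, the endothelial mucin EMCN included, were all below the filter too, and 7 of them had no count in any library. The highest of these by TPM were MUC13 and MUC3A, with means of 0.052 and 0.040 TPM in control cells. MUC1 was thus the only mucin expressed among the 16 examined.

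PAX2, EMX2 and FOXA2 had no count in any of the 6 libraries. For each of them, the depth allows up to 3 counts per library, or between 0.0799 and 0.108 CPM, and this limit covers counting error only. PAX2 (ENSG00000075891.22) lies on chromosome 10 from 100735396 to 100829944, EMX2 (ENSG00000170370.12) on chromosome 10 from 117542445 to 117549546 and FOXA2 (ENSG00000125798.15) on chromosome 20 from 22580998 to 22585455. EMX2OS, the RNA from the opposite strand of EMX2, had at most 1 count per library, and LINC00261, a noncoding neighbour of FOXA2, had 0. The relatives FOXA1 and FOXA3 had at most 4 counts in a library. None of the other PAX genes examined (PAX1, PAX3, PAX4, PAX5, PAX6, PAX7 and PAX9) exceeded 1 count in a library.

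The markers were then set beside lists of genes of the same lineages. These lists were chosen with earlier results of these data known, so their counts are not independent evidence. The mesothelial list, which holds none of the 10 markers, moved in the direction of WT1. MSLN, which is abundant on mesothelium but was kept out of this list as a marker, did not (log2 fold change 0.075, adjusted p = 0.41, edgeR quasi-likelihood). Of its 12 genes, 8 passed the filter, and 8 of these were lower at an adjusted p under 0.05 by edgeR's quasi-likelihood test (25.0% of all genes tested were lower), with 4 DE (6.43% of all genes). The median log2 fold change of the 8 was -0.62. CALB2 fell from 1927 ± 203 to 548 ± 70.3 normalized counts (log2 fold change -1.82, adjusted p = 4.8e-09). UPK3B, a uroplakin of mesothelium, fell from 332 ± 64.4 to 100.4 ± 23.4 (-1.75, adjusted p = 1.9e-06). LRRN4, a membrane protein of mesothelium, fell from 9445 ± 266 to 5668 ± 152 (-0.74, adjusted p = 9.0e-09). ITLN1, which encodes omentin, fell from 45.3 ± 19.8 to 22.8 ± 11.2 (-1.06, adjusted p = 0.026), all ± SD of 3 libraries. The ITLN1 libraries overlapped, and ITLN1 no longer passed without control replicate 1 (adjusted p = 0.16), control replicate 3 (0.073), knockdown replicate 1 (0.092) or knockdown replicate 2 (0.11). The fall of BNC1, a zinc finger factor, was small (-0.23, adjusted p = 3.2e-04). The summed level of the list was 744 to 753 CPM in control and 508 to 547 in knockdown libraries, and the part of other cell types in this was not tested.

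Among 21 genes of Müllerian duct and uterine development, 12 were tested, 6 were lower and 0 higher at an adjusted p under 0.05, and 2 were DE and lower. Over all genes tested, 25.0% were lower, 23.3% higher and 6.43% DE and lower. With library size alone as scaling, 8 of the 12 passed, of which 6 were lower. WNT4, a ligand needed for the Müllerian duct to form, fell from 2051 ± 152 to 730 ± 67.8 normalized counts (± SD of 3 libraries, log2 fold change -1.49, adjusted p = 2.9e-09). DACH1, a transcriptional cofactor, fell from 41.2 ± 13.1 to 17.9 ± 8.06 (± SD of 3 libraries, -1.19, adjusted p = 0.0081). The most abundant genes of the list, NR2F2 at 88.5 TPM and HOXA9 at 77.9 TPM in control cells, had log2 fold changes of 0.052 (adjusted p = 0.34) and -0.034 (adjusted p = 0.54). LHX1, a factor of the embryonic ducts, had no count in any library. The median log2 fold change of the 12 tested genes was -0.17.

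Of the 27 genes of glands and general epithelium, 12 were tested, 6 were lower and 0 higher, and 5 were DE and lower, against 25.0%, 23.3% and 6.43% of all genes tested. The median log2 fold change of the 12 was -0.57, close to the -0.62 of the mesothelial list. CDH1 had the lowest log2 fold change (-2.02), followed by KRT19 (-0.88) and CLDN10, a claudin (-0.79, adjusted p = 0.0020). KRT18 was lower by less than the cutoff (-0.55). CDH1, KRT7 and KRT19 of this list were also picked by the study from these libraries, so their part in the count and the median is not independent evidence. The paper reports a loss of CDH1 after knockdown by qRT-PCR and Western blot as well. In its qRT-PCR, another siRNA against LINC01133 also lowered CDH1. That siRNA lowered both CDH1 and LINC01133 by less than siRNA LINC01133a did. For KRT7 and KRT19, the follow-up measurements of the paper did not establish a reduction against siRNA controls. Of 8 genes of ciliated epithelium, 3 were tested and 2 were DE and higher (23.3% of all genes tested were higher, 5.30% DE). These were CAPS, from 14.9 ± 3.85 to 40.5 ± 1.58 normalized counts (± SD of 3 libraries), and CCDC78, from 22.6 ± 6.90 to 45.4 ± 6.29 (± SD of 3 libraries), while FOXJ1, the regulator of motile cilia, had at most 1 count in a library and TPPP3 stood at -0.067 on the log2 scale (adjusted p = 0.86).

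Of 19 stromal genes, 16 were tested, with 10 lower and 1 higher at an adjusted p under 0.05 (25.0% and 23.3% of all genes tested) and a median log2 fold change of -0.28. Of the 16, 4 were DE and lower and 1 DE and higher (6.43% and 5.30% of all genes), and with library size alone 11 passed, of which 9 were lower. PDGFRA fell (-1.52), as did FOXO1 (-0.85), and MME, which encodes the stromal marker CD10, rose from 529 ± 57.8 to 931 ± 21.1 normalized counts (± SD of 3 libraries, 0.82, adjusted p = 8.6e-07). VIM was lower by 0.43 on the log2 scale, and COL3A1 stood at 0.055 (adjusted p = 0.18). Of 10 genes of blood and endothelium, 5 were tested, with 2 lower and 1 higher (25.0% and 23.3% of all genes tested). CD14 (-0.98) and KDR (-0.68) fell and CDH5 rose (1.45). PTPRC, the CD45 gene of leukocytes, stood at -0.24 (adjusted p = 0.48) and VWF, of endothelium, at 0.29 (adjusted p = 0.33), with 16 to 25 and 19 to 30 counts per library, while CD3E had no count and CD68, PECAM1, CLDN5 and HBB had at most 3 counts in a library.

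**Figure D5:**
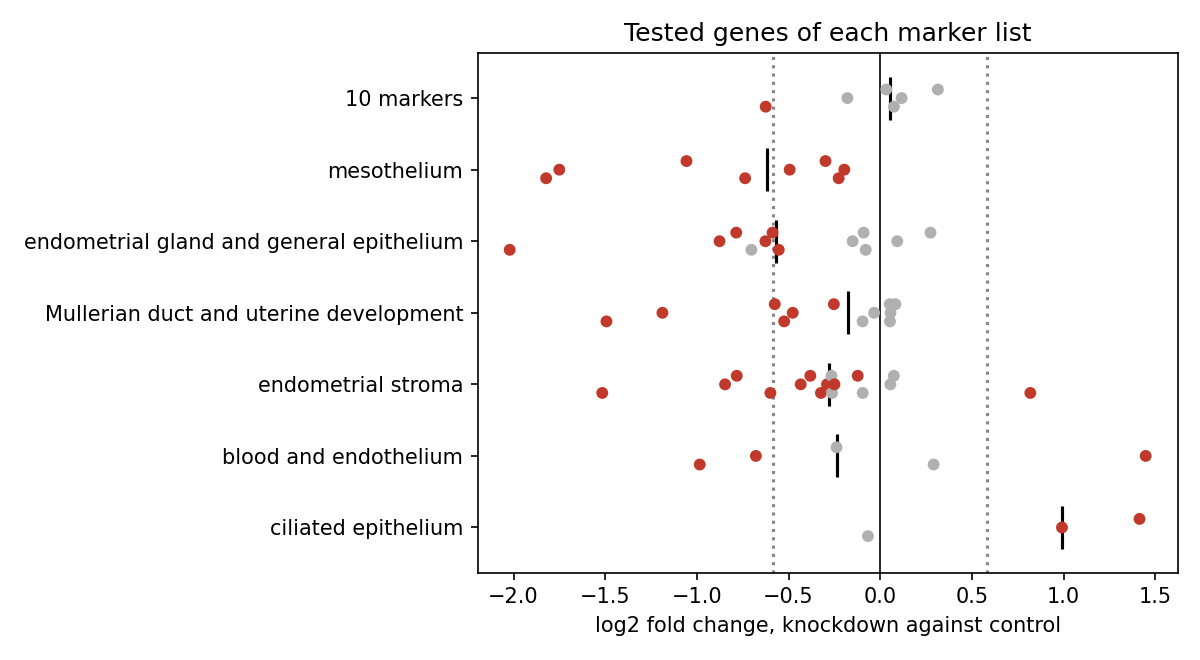
Log2 fold change, knockdown against control, of the tested genes of each list (points, red for an adjusted p under 0.05), with the list median as a black bar and dotted lines at a fold change of 1.5. The 8 tested mesothelial genes all lie below 0 with a median of -0.62, and the 6 tested markers have a median of 0.054. The median is -0.57 for the 12 tested genes of glands and general epithelium and 0.99 for the 3 of ciliated epithelium. MSLN is plotted with the markers.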

How the data were processed

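The 6 libraries of 12Z cells were poly-A selected and sequenced as read pairs. The authors aligned the reads with STAR 2.7.6a to GRCh38.p13 with GENCODE v36, kept reads with a single location, and deposited raw counts per gene. The study calls the libraries biological replicates, and the labels only number them, so p-values measure the spread between these samples. Counts were read from the reverse-stranded column, which held 94.0% of stranded counts. Symbols and lengths came from GENCODE v44 on GRCh38 (60419 of 60660 IDs matched). IDs without a length held 0.0744% of counts.

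Genes passing filterByExpr (minimum count 10) were compared with TMM factors and the quasi-likelihood test of edgeR 4.0.16 in R 4.3.3, with Benjamini-Hochberg adjustment over all 15155 genes. Normalized counts are scaled to the mean effective library size, and 95% intervals use the standard error implied by the F statistic. Scripts were tested on simulated data. TPM used the exon union per gene. The alternatives were DESeq2 1.42.0, other scalings, filters and strand columns, the replicate number as a block, another length, a TPM limit of 0.5, and omission of each library. The members and lists were chosen with earlier results of these data known. The genes named are all members, LINC01133, for each list the 2 highest by TPM and up to 3 DE genes with the largest change, all antisense partners, relatives with at least 10 counts, and the 2 genes most like each DE member. Other genes were named after their values were seen. Some genes of the lists are not reported here.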

Additional observations from a re-analysis of the deposited data

Results flagged for a closer look

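The reads on the opposite strand of PAX8 exons, from a count column that the comparisons above do not use, had a higher mean in knockdown than in control cells. Their normalized counts were 204, 194 and 174 in control libraries and 265, 237 and 297 in knockdown libraries, so the groups did not overlap. The means were 190 ± 15.0 and 267 ± 30.2 (SD, n = 3 each), a ratio of 1.40. In the column used for the tests above, 28.3% of the 15155 genes tested were likewise higher without overlap. No test across genes was run on the opposite-strand column. An exact permutation test over the 6 libraries, added after the values were seen, gave p = 0.1 for PAX8. This is the lowest p that 3 against 3 libraries allow, and any groups without overlap give it. The item was flagged because its groups did not overlap, so this p was fixed by that choice and adds no support. PAX8-AS1, which is transcribed from that strand and shares 1651 exon bases with PAX8, had a log2 fold change of 0.066 over its whole length, and whether parts of it changed differently was not tested.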

How the results depend on the processing

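The number of DE markers was 1 in each alternative except library size alone as scaling, which gave 0, because WT1 then had a log2 fold change of -0.56. The number of expressed markers was 4 in each alternative except a TPM limit of 0.5, which gave 6. The number of DE genes over all genes stayed between 1446 (DESeq2) and 1963 (no filter), against 1778. MUC1 passed the adjusted p without a filter (adjusted p = 0.027) and without control replicate 3 (0.0091), and PAX8-AS1 with library size alone (0.048). The cause was not tested. The mesothelial genes that passed numbered 7 to 9, and ITLN1 lost its call in 4 of the 6 omissions of a library. The replicate numbers did not pair the samples, with correlations of deviations of -0.015, 0.0049 and 0.057 between libraries of the same number, and 1 of 3 numbers matched best with itself. With the replicate number as a block, 1747 genes and 1 marker were DE, and WT1 had a log2 fold change of -0.63. Low counts limit SOX17, EPCAM and MUC16.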
